A study of Homo sapiens with 12 samples.

Results

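The interleukin-6 (IL-6) family cytokines IL6, LIF, IL11 and CLCF1, their receptor genes IL6R, IL6ST, OSMR and LIFR, the transcription factor gene STAT3 and its feedback inhibitor SOCS3 were examined on 12 microarrays of human proximal tubular cells (HPTCs). The 10 genes were chosen by name, and each of the 19 probes that the array annotation assigns to one of them was used. All 10 passed the filter on dim probes, among 17843 genes tested in all. IL6ST has 7 probes, IL6, LIF and STAT3 have 2 each, and the other 6 genes have 1. Where a gene has several, the brightest is described first.

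Cytokines of this family signal through shared receptor chains. The product of IL6ST, gp130, joins IL6R for IL-6, LIFR for LIF, OSMR or LIFR for oncostatin M, and the IL-11 receptor for IL-11. The paired chains activate JAK kinases, which phosphorylate STAT3, and STAT3 in the nucleus turns on SOCS3, whose product blocks the receptor. In the kidney, tubular epithelium is a known source of IL-6 and LIF during inflammation, and IL-1β is a classical inducer of IL6 transcription through NF-κB.

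HK-2 is a proximal tubular line from a normal human kidney, immortalized with genes of a papillomavirus. RPTEC/TERT1 is a proximal tubular line that was made immortal with telomerase. Cells of both lines were starved of serum and supplements at normal glucose and then kept for 24 h without a ligand (control), with IL-1β (10 ng/mL) or with empagliflozin (Empa, 500 nM), which inhibits the sodium-glucose cotransporter SGLT2. IL-1β and Empa were not combined on any array. There were 2 arrays per line and treatment, described as biological duplicates. Each of the 4 slides carried the 3 treatments under 1 line label and 1 replicate number, and each treated array was compared with the control of its slide. The slides are called A (label HK-2, replicate 1), B (HK-2, 2), C (RPTEC/TERT1, 1) and D (RPTEC/TERT1, 2), and values are given in that order.

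The line labels were in doubt. Across 15324 probes, the controls of slides A and D correlated with r = 0.984 and those of slides B and C with r = 0.973, whereas r was 0.880 between A and B (both labelled HK-2) and 0.875 between C and D (both labelled RPTEC/TERT1). The control signal of CDH1, which encodes the epithelial adhesion protein E-cadherin, was 2833, 9.67, 7.98 and 3111 units on slides A to D, and it was not well above background on slides B and C. One of the label fields names HK-2 for all 12 arrays. No property is therefore assigned to a line. Of 12 proximal tubule markers 8 passed the filter, and CUBN, ALPL, HNF4A and SLC22A6 did not. A signal here is the background-subtracted brightness after each array was scaled by its 75th percentile, in common units. Because each probe binds with its own strength, signals were not compared between genes. A fold written "at least" takes, for the dim array, the lowest signal well above background there, or the probe's own signal if higher. On some of these arrays brighter probes were still not well above background, so such a fold is nominal and not a strict minimum. In bulk RNA, fewer cells with a transcript and less transcript per cell cannot be told apart.

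The promoters of the 3 genes with an entry that IL-1β raised are shown. Whether their sequences relate to the size or evenness of the response was not tested. The 250 bases before the start site are given 5′ to 3′ on the strand of the gene, from RefSeq on GRCh38.p14. Capitals mark a match to a searched motif. The positions are chr7:22726950-22727199 (plus strand) for IL6, chr19:55370464-55370713 (minus strand) for IL11 and chr5:38845762-38846011 (plus strand) for OSMR.
IL6: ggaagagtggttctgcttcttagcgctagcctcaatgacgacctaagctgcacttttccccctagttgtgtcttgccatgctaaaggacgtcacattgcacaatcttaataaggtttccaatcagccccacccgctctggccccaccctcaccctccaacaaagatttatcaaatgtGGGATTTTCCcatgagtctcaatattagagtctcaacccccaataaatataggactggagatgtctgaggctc
IL11: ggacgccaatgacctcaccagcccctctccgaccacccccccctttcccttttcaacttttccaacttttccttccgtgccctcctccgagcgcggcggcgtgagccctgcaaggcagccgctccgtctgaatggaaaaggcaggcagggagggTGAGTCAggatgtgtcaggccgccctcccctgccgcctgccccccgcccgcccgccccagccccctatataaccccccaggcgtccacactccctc
OSMR: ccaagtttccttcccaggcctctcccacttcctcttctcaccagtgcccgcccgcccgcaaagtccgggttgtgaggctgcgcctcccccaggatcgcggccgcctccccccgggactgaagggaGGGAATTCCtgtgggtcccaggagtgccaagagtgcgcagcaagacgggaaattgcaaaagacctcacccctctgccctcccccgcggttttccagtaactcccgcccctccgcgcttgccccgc

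The 4 motifs, searched on both strands, were the NF-κB consensus known as the κB motif, a shorter κB form GGGNNTTCC, the AP-1 motif TGANTCA and the STAT motif TTCNNNGAA. The IL6 window held the κB motif from -73 to -64 relative to the start, as did 9.96% of all 35116 promoter windows of the same length. The IL11 window held the AP-1 motif from -96 to -90, against 6.57% of all windows. The OSMR window held the shorter κB form from -125 to -117, against 5.78% of all windows, and no match overlapped another. Of the 11 windows of 8 of the genes, 2 of the 3 LIFR windows held the STAT motif, which 6.57% of all windows hold, the IL6ST window held the κB motif and the STAT3 window the shorter κB form. The SOCS3 and IL6R windows held none of these letters. A match is a description of the sequence and not evidence of binding.

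To ask how IL-1β changed the family, the within-slide differences were fitted for all genes with limma, with the slide as a block and 1 effect per treatment. The transcripts of 3 ligands and 1 receptor rose. IL6 had the largest change of the 10, followed by IL11, LIF and the oncostatin M receptor gene OSMR. No member passed the test for lower expression. Of all 17843 genes, 9.03% passed the adjusted p threshold of 0.05 with IL-1β, 4.2% higher and 4.83% lower, against 4 higher and 0 lower of the 10 genes. At an unadjusted p under 0.05 there were 5 of the 10 genes and 26% of all genes. The median log2 fold change was 0.50 over the 10 genes and -0.03 over all genes. The same 4 genes were above control on all 4 slides, as were 17.7% of all genes.

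**Figure D1:**
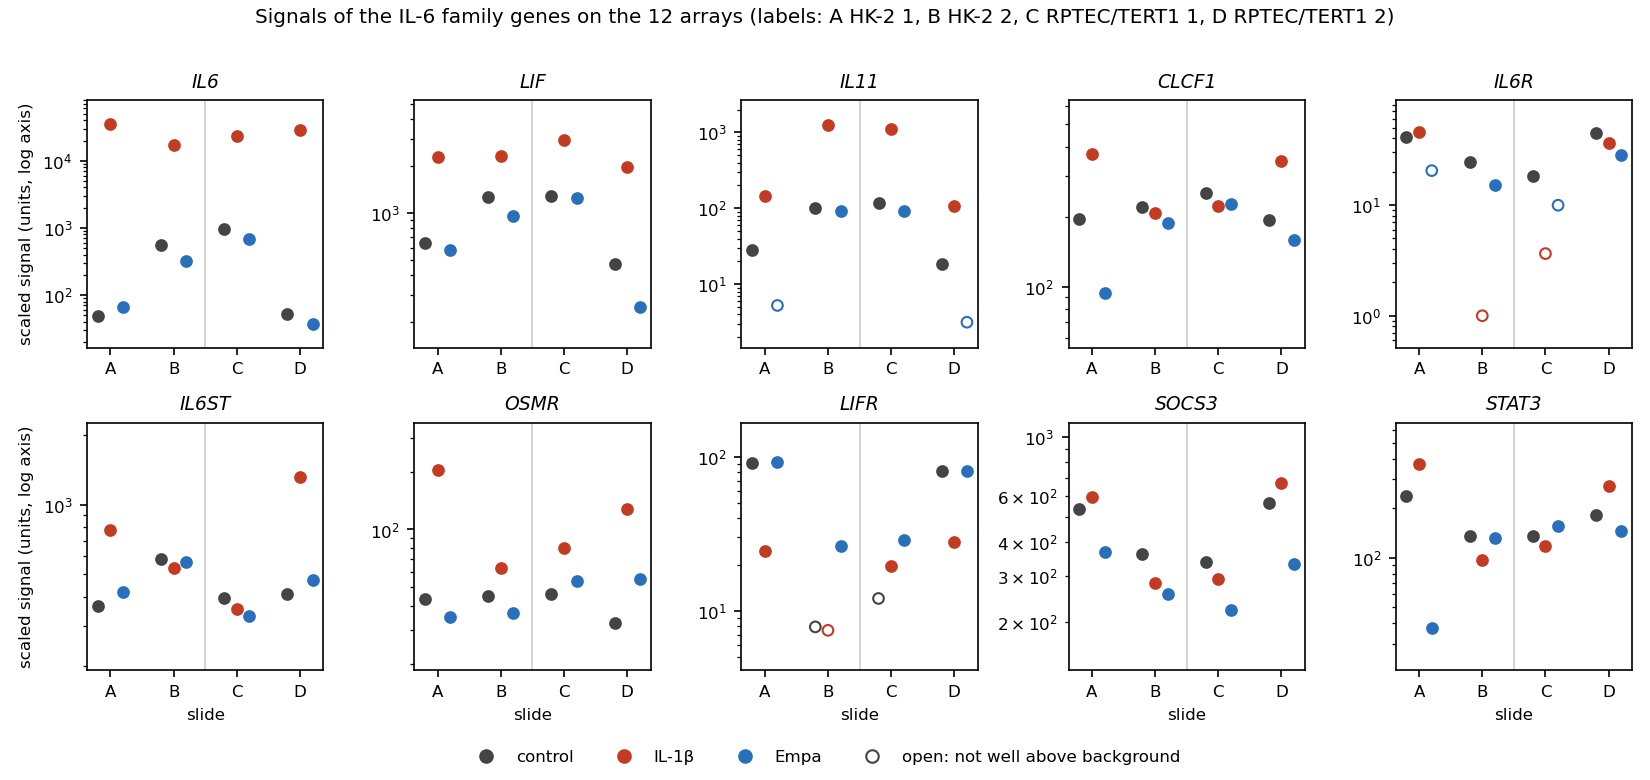
Scaled signal of each gene (vertical log axis, units) on slides A to D (horizontal axis), with 1 point per array. Control is grey, IL-1β red and Empa blue, and open points were not well above background. The IL-1β points of IL6 lie between 17432 and 35484 units, all above the control points, which lie between 48.5 and 961 units.

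IL6 encodes the acute-phase cytokine interleukin-6. Its probe lies at chr7:22771207-22771266 (hg19) and is spotted 10 times on the array. The IL6 control signal was 48.5 and 557 units on slides A and B and 961 and 53.0 units on slides C and D. With IL-1β the IL6 signal was 35484, 17432, 23327 and 28281 units in the same order. The control arrays thus spanned a wide range and the IL-1β arrays a narrow one, without overlap. IL6 was 731-fold and 534-fold higher on slides A and D, where the control signal was low, and 31.3-fold and 24.3-fold higher on slides B and C. Over the 4 slides the log2 fold change of IL6 was 7.04 (SE 0.85, adjusted p = 0.00292, limma). It was 6.29 after normexp background correction and 5.84 in the authors' table, and IL6 passed the test in both. The other IL6 probe was well above background only on the 4 IL-1β arrays, at 58.9 to 92.5 units, which is at least 5.56-fold to at least 12.3-fold above the control array of the slide.

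IL11 encodes a cytokine linked to fibrosis and epithelial repair. The IL11 control signal was 28.5 and 100.5 units on slides A and B and 118 and 18.6 units on slides C and D. With IL-1β the IL11 signal was 143, 1236, 1107 and 106 units in the same order. IL-1β was higher than control on every slide, by 5.03-fold to 12.3-fold, although the lowest IL-1β array lay below the highest control array. The log2 fold change of IL11 was 2.92 (SE 0.41, adjusted p = 0.00539, limma). It was 1.99 after normexp and 1.82 in the authors' table (adjusted p = 0.00834 and 0.0391). The larger folds of IL11 came from the slides where those of IL6 were smaller.

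LIF encodes leukemia inhibitory factor. Its control signal was 646 and 1262 units on slides A and B and 1289 and 472 units on slides C and D. With IL-1β the LIF signal was 2299, 2336, 2922 and 1978 units in the same order, and no IL-1β array overlapped a control array. The log2 fold change of LIF was 1.49 (SE 0.28, adjusted p = 0.0162, limma), a 2.81-fold rise. The other LIF probe was well above background on 3 of 12 arrays and gave 1.06 (SE 0.56, adjusted p = 0.277). The LIF call was lost in 7 of 16 fits that left out 1 array or slide, with adjusted p up to 0.0931.

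OSMR encodes the receptor chain that pairs with gp130 for oncostatin M. The OSMR control signal was 43.3 and 45.2 units on slides A and B and 46.1 and 32.6 units on slides C and D. With IL-1β it was 205, 63.0, 80.6 and 127 units in the same order. All 4 IL-1β arrays lay above all 4 control arrays. The non-overlap was shared with IL6 and LIF among the 10 genes, and 4.32% of all genes had it. The log2 fold change of OSMR was 1.37 (SE 0.34, adjusted p = 0.0433, limma), 0.80 after normexp and 0.62 in the authors' table (adjusted p = 0.0309 and 0.00943). The OSMR call was the least stable of the 4, being lost in 13 of 16 fits that left out 1 array or slide, with adjusted p up to 0.231.

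**Figure D2:**
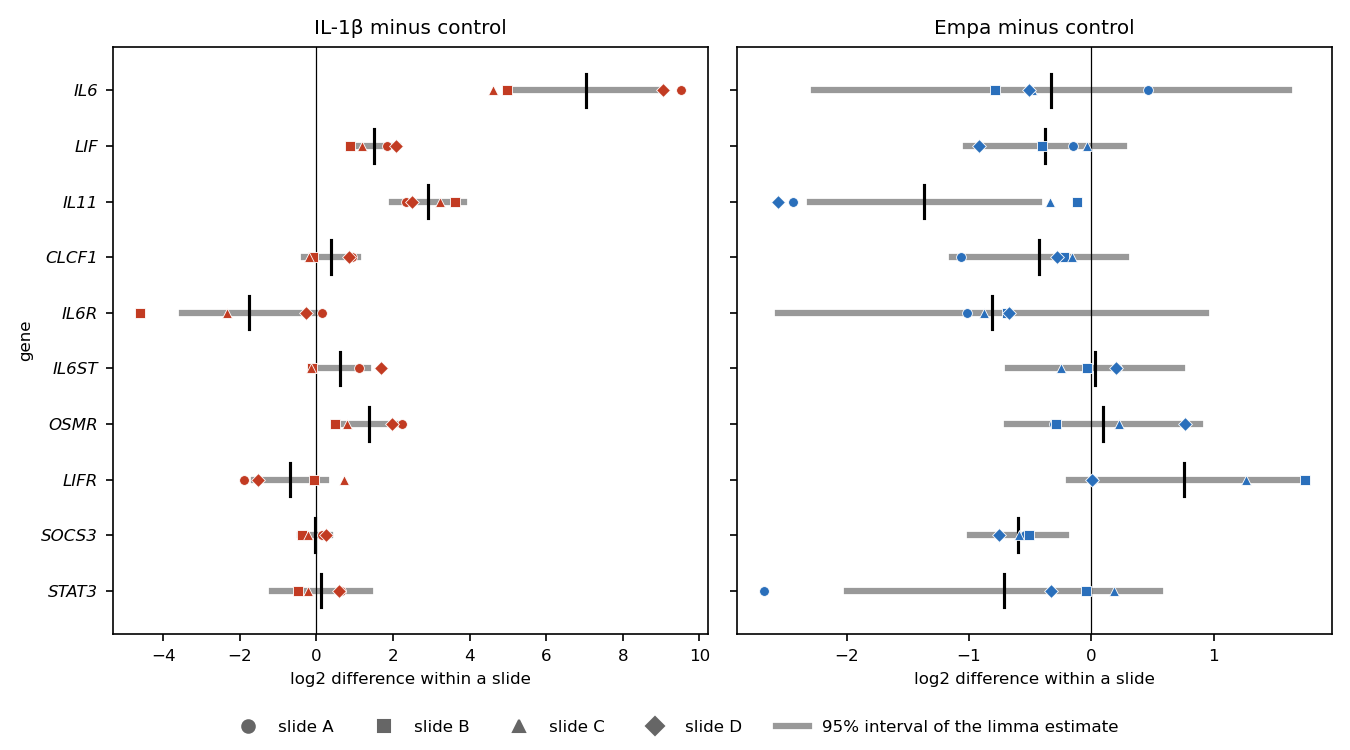
Log2 difference from the control array of the same slide (horizontal axis) for each gene (vertical axis), with IL-1β on the left and Empa on the right. Each symbol is 1 slide, the black tick is the limma estimate over 4 slides and the grey bar its 95% interval. Symbols do not mark arrays at the floor or not well above background. Examples are IL6R with IL-1β on slide B (-4.61) and IL11 with Empa on slides A and D (-2.44 and -2.56). The IL6 points for IL-1β lie between 4.60 and 9.51, and the SOCS3 points for Empa lie between -0.76 and -0.51.

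The remaining 6 genes did not pass the test with IL-1β. In 4 of them, CLCF1, IL6ST, STAT3 and SOCS3, IL-1β was higher than control on slides A and D and lower on the other two. CLCF1, which encodes a ligand of the ciliary neurotrophic factor receptor, had control signals of 195 and 220 units (slides A and B) and 252 and 193 units (slides C and D), and 372, 207, 222 and 347 units with IL-1β in the same order. The differences on slides A and D were 1.90-fold and 1.80-fold, and the CLCF1 log2 fold change over the 4 slides was 0.38 (SE 0.31, adjusted p = 0.498).

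IL6ST encodes gp130, the signal-transducing chain shared by IL-6, IL-11, LIF and oncostatin M. The brightest IL6ST probe had control signals of 363 and 581 units (slides A and B) and 394 and 411 units (slides C and D), and 778, 534, 354 and 1320 units with IL-1β in the same order. IL6ST was therefore 2.14-fold and 3.21-fold higher on slides A and D and 1.09-fold and 1.11-fold lower on the others. Over the 4 slides the log2 fold change was 0.63 (SE 0.31, adjusted p = 0.247). The 7 IL6ST probes gave log2 fold changes between 0.00 and 0.75, and none passed the test when every probe was tested (adjusted p 0.247 to 0.989). The probe nearest the 3′ end of the gene had differences from -0.27 to 0.29 over the slides, the smallest span of the 7.

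**Figure D3:**
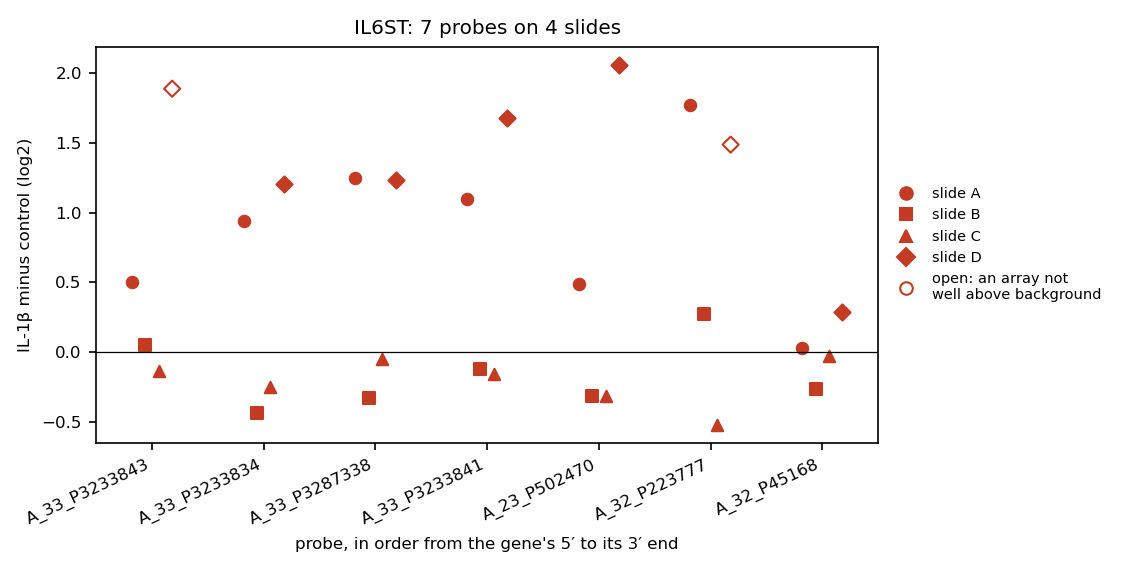
Log2 difference between the IL-1β and the control array of a slide (vertical axis) for the 7 IL6ST probes (horizontal axis, in order along the gene), with 1 symbol per slide. Open symbols mark a pair in which an array was not well above background. Slides A and D lie above 0 for all 7 probes, up to 2.06, and slide C lies below 0 for all 7.

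STAT3 encodes the main transcription factor of the pathway. Its control signal was 239 and 136 units (slides A and B) and 137 and 182 units (slides C and D), and with IL-1β it was 370, 97.2, 117 and 272 units in the same order. The log2 fold change was 0.13 (SE 0.56, 95% interval -1.15 to 1.41, adjusted p = 0.918). The other STAT3 probe, spotted 10 times, split the slides in the same way and gave -0.27 (SE 0.45). The data therefore give no direction for STAT3 with IL-1β.

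SOCS3, the feedback inhibitor, had control signals of 536 and 363 units (slides A and B) and 338 and 560 units (slides C and D). With IL-1β the SOCS3 signal was 594, 280.5, 290.5 and 668 units in the same order, which overlaps the controls. The SOCS3 log2 fold change was -0.05 (SE 0.17, 95% interval -0.44 to 0.34, adjusted p = 0.901).

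The ligand-binding receptors IL6R and LIFR were well above background on 8 and 9 of the 12 arrays. IL6R, the IL-6 binding chain, had control signals of 41.4 and 24.5 units (slides A and B) and 18.3 and 44.5 units (slides C and D). With IL-1β it was 45.7 and 36.6 units on slides A and D. On slides B and C IL6R was not well above background with IL-1β, nominally at least 5.52-fold and at least 2.50-fold lower. These are not strict minima. On the same IL-1β arrays SLC34A1 at 10.7 units (slide B) and SOCS2 at 15.9 units (slide C) were also not well above background. The fitted log2 fold change of IL6R was -1.77 (SE 0.77, adjusted p = 0.188), against -0.19 after normexp and -0.26 in the authors' table.

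LIFR, which pairs with gp130 for LIF, was well above background in the control arrays of 2 slides only. There the signal was 91.4 units (slide A) and 81.1 units (slide D), and 24.6 and 27.9 units with IL-1β, a 3.71-fold and a 2.91-fold lower signal. On slide C LIFR was at least 1.64-fold higher with IL-1β, and on slide B neither array was well above background. The log2 fold change of LIFR over the 4 slides was -0.70 (SE 0.41, adjusted p = 0.329).

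To ask how Empa alone changed the basal expression of the family, the Empa arrays were compared with the same controls. None of the 10 genes passed the adjusted threshold, and 1 gene of 17843 did (0.0056%). That gene was DHRS2, a dehydrogenase gene outside the family that is named because of its value (adjusted p = 0.0335, limma). It was 8.21-fold and 6.06-fold higher on slides B and C and at least 3.40-fold higher on slide A, and neither array of slide D was well above background. At an unadjusted p under 0.05 there were 2 of the 10 genes, IL11 and SOCS3, against 11.1% of all genes. The methods name an unpaired t-test beside the PCR and ELISA data and no test for the arrays. Such a t-test of the 4 Empa against the 4 control arrays called 0 of the 10 and 3.78% of all genes at an unadjusted p under 0.05. The median log2 fold change was -0.41 over the 10 genes and 0.02 over all genes. Of the 10, 5 were below control on all 4 slides (LIF, IL11, CLCF1, IL6R and SOCS3), as were 11.1% of all genes, and LIFR was above control on all 4, as were 13.9% of all genes.

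The SOCS3 signal with Empa was 368 and 255 units on slides A and B and 223 and 332 units on slides C and D. SOCS3 was 1.42-fold to 1.69-fold lower than control, a similar amount on each slide. The log2 fold change was -0.60 (SE 0.17, 95% interval -0.99 to -0.21, adjusted p = 0.336, limma). The adjusted p was between 0.341 and 0.759 when 1 array or slide was left out, with log2 fold changes between -0.69 and -0.50.

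The IL11 signal with Empa was 5.25 and 92.7 units on slides A and B and 93.0 and 3.16 units on slides C and D. On slides A and D it was not well above background with Empa, nominally at least 3.1-fold and at least 3.76-fold below control. These are not strict minima. On the same Empa arrays an IL6ST probe at 22.1 units (slide A) and SLC34A1 at 14.2 units (slide D) were also not well above background. On slides B and C IL11 was 1.08-fold and 1.26-fold lower. The fitted log2 fold change of IL11 was -1.36 (SE 0.41, adjusted p = 0.347), but -0.26 after normexp and -0.18 in the authors' table, so its size depends on how dim signals are handled.

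LIF was lower with Empa by 1.11-fold and 1.32-fold on slides A and B and by 1.03-fold and 1.89-fold on slides C and D. Its log2 fold change was -0.38 (SE 0.28, adjusted p = 0.613). LIF and IL11 were the members with IL-1β above and Empa below control on all 4 slides, 2 of 10 against 1.3% of all genes. Both comparisons use the same control arrays, and both genes are in the list that the study chose on these arrays for that pattern, so the count is not independent evidence.

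IL6 itself did not move in one direction with Empa. The IL6 signal with Empa was 67.0 and 322 units on slides A and B and 687 and 37.2 units on slides C and D. It was 1.38-fold higher than control on slide A and 1.40-fold to 1.73-fold lower on the other slides. The IL6 log2 fold change with Empa was -0.33 (SE 0.85, 95% interval -2.27 to 1.61, adjusted p = 0.892), an interval that holds changes in both directions.

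The Empa array of slide A stood apart for STAT3 and CLCF1. STAT3 was 37.3 units there and 132, 155 and 145 units in the Empa arrays of slides B, C and D. The other STAT3 probe was also lowest there, at 41.0 units against 65.0, 64.0 and 70.0 units. The STAT3 log2 fold change with Empa was -0.71 (SE 0.56, adjusted p = 0.628) with this array and 0.02 (SE 0.29, adjusted p = 0.983) without it. CLCF1 was 93.5 units on this array and 188, 226 and 159 units on the others, and its log2 fold change was -0.43 (SE 0.31) with this array and -0.13 (SE 0.27) without it. The array also differed over all probes compared. Its r with the Empa array of slide D was 0.960, against 0.979 for the Empa arrays of slides B and C. For control and IL-1β, r within the same slide pairs was 0.973 to 0.984.

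The receptor genes showed no change with Empa that passed the test. IL6ST was 420, 567, 331 and 472 units (slides A to D), and its log2 fold change was 0.03 (SE 0.31, 95% interval -0.68 to 0.74). OSMR was 35.1, 37.0, 54.0 and 55.3 units in that order, with a log2 fold change of 0.10 (SE 0.34). IL6R was 20.4, 15.2, 9.95 and 28.0 units, not well above background on slides A and C, with a log2 fold change of -0.81 (SE 0.77, adjusted p = 0.684), or -0.18 in the authors' table. LIFR was 92.3, 26.3, 28.9 and 81.4 units. It matched the control signal within 1.01-fold on slides A and D, and it was at least 3.30-fold and at least 2.40-fold above control on slides B and C (log2 fold change 0.76, SE 0.41, adjusted p = 0.513, and 0.17 after normexp).

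The effect of a treatment was also compared between the line labels. No member differed in its IL-1β effect between the arrays labelled RPTEC/TERT1 and HK-2 (adjusted p = 1.00 for each), and 0 of 17843 genes did. At an unadjusted p under 0.05, 1.37% of all genes and none of the members differed. For IL6 the difference of the log2 effects was -0.41 (SE 1.94), and for LIF it was 0.26 (SE 0.63). For Empa 0 members and 0 of all genes passed in limma, and at an unadjusted p under 0.05 none of the members and 1.01% of all genes differed. Each label joined a slide of the pair A and D with a slide of the pair B and C, so a difference between these pairs largely cancels in this contrast. With the labels in doubt, these values do not compare the lines.

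Other genes of the pathway were described by lists. None of the 7 tested genes among 11 other ligands and receptors of the family passed the test with IL-1β. EBI3, a subunit of IL-27 and IL-35, had 18.4, 162, 166 and 13.0 units in the controls and 3594, 388, 368 and 2987 units with IL-1β (slides A to D). The controls of slides A and D were not well above background, so EBI3 was at least 195-fold and at least 229-fold higher there and 2.40-fold and 2.22-fold higher on slides B and C (adjusted p = 0.0711). OSM, the ligand of OSMR, was well above background on 6 arrays and had a log2 fold change of -0.07 (SE 0.32). The IL-11 receptor gene IL11RA was well above background on 12 arrays and had -0.63 (SE 0.23, adjusted p = 0.131).

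Among 8 tested genes of JAK kinases, STATs and adaptors, PTPN11 rose (log2 fold change 0.61, SE 0.15, adjusted p = 0.0393), and 0 fell. PTPN11 encodes SHP2, a phosphatase that binds gp130 at the site that SOCS3 also uses. JAK1, the main kinase of gp130, had 1.33 (SE 0.49, adjusted p = 0.129). Of 8 negative regulators of STAT signaling 2 fell and 0 rose. For both lists, the shares over all genes were 4.2% higher and 4.83% lower. SOCS2 fell by 2.42 on the log2 scale (SE 0.18, adjusted p = 0.000534), with signals of 364, 91.0, 81.4 and 268 units in the controls and 65.4, 15.7, 15.9 and 53.2 units with IL-1β. CISH fell by 1.72 (SE 0.21, adjusted p = 0.00330). Both belong to the SOCS family and are known as STAT5 targets. SOCS1 had 0.02 (SE 0.34). ADAM10 and ADAM17, proteases that can shed IL6R from the cell surface, did not pass the test.

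Of 9 regulators of IL6 transcription and mRNA 4 rose and 0 fell with IL-1β, against 4.2% of all genes higher and 4.83% lower. ZC3H12A, which encodes the nuclease regnase-1 that degrades IL6 mRNA, rose by 4.59 on the log2 scale (SE 0.39, adjusted p = 0.000804). NFKBIZ, a nuclear cofactor of NF-κB at the IL6 gene, had 2.84 (SE 0.52, adjusted p = 0.0142). NFKB1, an NF-κB subunit, had 2.19 (SE 0.44, adjusted p = 0.0204), and CEBPB, which encodes the factor once named NF-IL6, had 2.15 (SE 0.46, adjusted p = 0.0247). RELA had 0.49 (SE 0.36) and ZFP36, which encodes the mRNA-destabilizing protein tristetraprolin, had -0.05 (SE 0.35).

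Of 20 tested genes among 25 known STAT3 targets 5 rose and 1 fell with IL-1β, against 4.2% of all genes higher and 4.83% lower. The acute-phase gene SAA1 rose by 5.11 on the log2 scale (SE 1.00, adjusted p = 0.0181). SAA2 rose as well (adjusted p = 0.0152), but none of its 4 control arrays was well above background. This leaves nominal bounds of at least 82.3-fold, 14.3-fold, 13.6-fold and 71.2-fold on slides A to D. They are not strict minima, since EBI3 at 18.4 units (slide A) and an IL6ST probe at 24.8 units (slide D) were also dim on these controls. The paralogs SAA1 and SAA2 are nearly identical in sequence, and their probes may share signal. BCL6, a transcriptional repressor, rose by 1.77 (SE 0.23, adjusted p = 0.00392), and MYC, a growth regulator, by 1.02 (SE 0.23, adjusted p = 0.0319). BCL3 rose by 0.89 (SE 0.23, adjusted p = 0.0493), and FOS, an immediate early gene, passed the test as lower (adjusted p = 0.00852). FOS was not well above background on any IL-1β array nor on the controls of slides A, B and D, so it has a fold on slide C alone, at least 4.32-fold lower. SAA1, SAA2, BCL3 and MYC are also known as NF-κB targets. The list median was 0.58 with IL-1β, and the targets PIM1 (1.66, adjusted p = 0.0849), HIF1A (0.53) and VEGFA (0.08) did not pass. SERPINA3 did not pass either (3.45, SE 1.45, adjusted p = 0.177, limma). Its signal went from 51.1 to 6900 units on slide A and from 57.5 to 8322 units on slide D. On slides B and C it went from 43.4 to 31.9 and from 27.0 to 26.8 units. With Empa none of the genes of these lists passed the adjusted threshold, and the median of the STAT3 targets was -0.27.

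**Figure D4:**
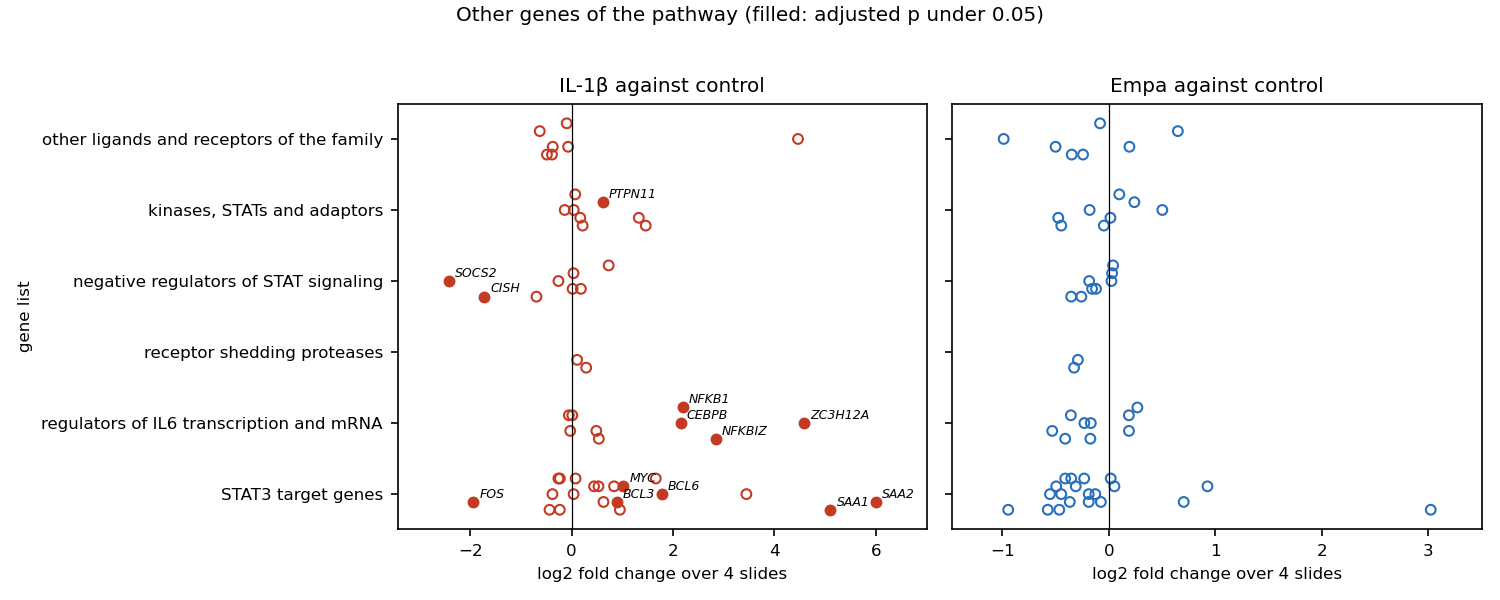
Log2 fold change over 4 slides (horizontal axis) of each tested gene of 6 lists (vertical axis), with IL-1β on the left and Empa on the right, drawn on separate scales. Filled and named points had an adjusted p under 0.05. With IL-1β the filled points reach from -2.42 (SOCS2) to 6.00 (SAA2, a fitted value whose controls were not well above background), and no point is filled with Empa.

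Markers of cell types were measured on the same arrays. Of the tested markers, 2 of 8 proximal tubule genes (LRP2 and SLC34A1) and 2 of 5 epithelial genes (CDH1 and EPCAM) fell with IL-1β, and 0 rose. Of all genes, 4.83% passed as lower and 4.2% as higher. The tubule gene ANPEP went from 170 to 875 units on slide A and from 152 to 764 units on slide D. The epithelial gene PAX8 went from 2737 to 6828 and from 2602 to 5852 units there. On slides B and C PAX8 was lower with IL-1β and ANPEP was at most 6.80 units. Neither passed (adjusted p = 0.325 and 0.775, limma). LRP2, the endocytic receptor megalin, fell by 2.35 on the log2 scale (SE 0.16, adjusted p = 0.000424), and EPCAM fell by 0.89 (SE 0.22, adjusted p = 0.0388). CDH1 was 9.51-fold and 13.9-fold lower on slides A and D (adjusted p = 0.00285 over 4 slides), and on slides B and C neither array was well above background. SLC34A1 was at least 2.76-fold and at least 2.41-fold lower on slides A and B and has no fold on slides C and D. The summed signal of the tubule markers was 1188 to 1922 units in the controls and 709.3 to 2320 units with IL-1β, and that of the epithelial markers was 17320 to 36783 units and 14269 to 32855 units. None of the tested leukocyte (4), endothelial (2) or fibroblast (3) markers passed the test with either treatment, and PECAM1, KDR, TEK, PDGFRB and COL1A2 did not pass the filter. The slides differed in some of these markers all the same. The fibroblast marker DCN was 10.8, 2642, 2708 and 11.5 units in the controls of slides A to D. COL1A1 went the other way, at 56.4, 16.8, 19.8 and 46.9 units, and COL3A1 was at most 12.2 units there. The summed control signal was 60.1 to 2728 units for the fibroblast markers and 171 to 1059 units for the leukocyte markers. All such sums are weighted to the brightest probes. The high ones came mainly from DCN and from the leukocyte marker CD68 (117, 875, 805 and 114 units). PTPRC (58.4, 41.6, 57.6 and 28.0 units) and CD14 (91.7, 128, 81.5 and 19.8 units) did not split the slides as CD68 did. CD3E was well above background on 2 arrays only. The part of these shifts and slide differences in the values of the family was not tested.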

How the data were processed

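The authors hybridized Cy3-labelled RNA to one-color Agilent arrays and read them with Feature Extraction. The intensity values used were, per the file headers, background-subtracted and not yet normalized across arrays when the authors deposited them. A deposited table of log2 values, described as quantile-normalized, served as an alternative. Controls and outlier spots were left out and the spots of a probe averaged (33483 of 34127 probes kept). Signals were scaled to the 75th percentile of the array, raised to at least 1 unit and log2-transformed. Between 52.7% and 63.1% of probes were well above background on an array, and no member value was saturated. The brightest probe per gene among those well above background on at least 2 of 12 arrays was tested with limma 3.58.1 (R 4.3.3) with the slide as a block, 1 effect per treatment and 6 residual degrees of freedom, and Benjamini-Hochberg adjustment over 17843 genes. Bounds written "at least" use the higher of the lowest signal well above background on the dim array and the probe's own signal there. They are nominal, because the lowest such signal is not a limit of detection for every probe. Fitted values of genes with dim arrays depend on the floor. Where the line difference was tested, each line had its own effects. The arrays were paired by slide. Within a slide, deviations from the group means correlated with r between 0.592 and 0.906. With 2 arrays per group the deviations of the slides of a label mirror each other. They carry the large difference between those slides, so these values cannot show which arrays belong to the same experiment. Named were the members and, per list, up to 4 genes past the threshold with the largest IL-1β change, beside values of other listed genes chosen after they were seen. The members and lists were chosen with earlier results of these data known. The procedure was tested on simulated data. Promoters came from RefSeq for 8 of the 10 genes, and LIF and CLCF1 were not analysed there. Figures were drawn with matplotlib 3.10.9.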

Additional observations from a re-analysis of the deposited data

Results flagged for a closer look

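Among the 20 sets of 4 within-slide differences of the 10 genes, 1 had a value far from the other 3, which chance alone gives in about 1 set of 20. It was CLCF1 with Empa, whose log2 difference was -1.06 on slide A and between -0.28 and -0.16 on the other slides. The gap made up 0.864 of the whole range.

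OSMR with Empa was below control on slides A and B and above it on slides C and D. The mean log2 difference was 0.79 higher under the RPTEC/TERT1 label (SE 0.71, adjusted p = 1.00, limma), which did not pass the test.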

How the results depend on the processing

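The number of members past the threshold with IL-1β was 4 with the replicate block and 0 without it (6 groups, mean of both labels; 5 genes of 17843 called), where the adjusted p was 0.187 for IL6 and 0.862 for IL11. It was 2 with the replicate block and 1 effect per line (2.76% of all genes), and 0 within the HK-2 label, 0 within the RPTEC/TERT1 label, 0 within the slides of number 1 and 0 within those of number 2 (scanned on different days), subsets in which 0 of all genes were called. It was 0 by an unpaired t-test of the 4 IL-1β against the 4 control arrays after adjustment (0.185% of all genes) and 4 before it (11.3%). Each subset holds 1 of slides A and D and 1 of B and C, whose IL6 differences were 9.51 and 9.06 against 4.97 and 4.60, so its mean lies near that of all slides by construction. Leaving out 1 array or slide gave 2 to 4 members, 2 without the control or IL-1β array of slide A, without the control array of slide D or without any 1 slide. IL6 (6.21 to 7.85) and IL11 (2.60 to 3.20) passed in all of these. Other normalizations, background corrections, floors and probe filters gave 3 or 4, with fold changes that were smaller after normexp and in the authors' table (IL11 1.99 and 1.82, OSMR 0.80 and 0.62, IL6 6.29 and 5.84). Empa gave 0 members throughout. The difference between the line labels also gave 0. Because each label joins a slide of the pair A and D with a slide of the pair B and C, that count cannot test a difference between the lines.

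Small effects changed sign. With 1 array or slide left out, the log2 fold change with Empa ranged from -0.87 to 0.10 for IL6, -0.17 to 0.21 for IL6ST, -0.12 to 0.38 for OSMR and -1.07 to 0.023 for STAT3, and with IL-1β from -0.17 to 0.076 for SOCS3 and -0.37 to 0.44 for STAT3. OSMR with Empa was -0.30 within the HK-2 label and -0.039 within number 1. SOCS3 with IL-1β was 0.018 within the RPTEC/TERT1 label. IL6ST with Empa was -0.026 within that label, -0.021 within number 1 and -0.025 in the authors' table. By other probes, STAT3 with IL-1β was -0.27, LIF with Empa was 0.60 and IL6ST with Empa was -0.43, -0.13, -0.46, -0.37 and -0.33. The cause was not tested. The 4 slides limit the precision, and genes below background have only nominal bounds.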

Other observations

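After the mean of each slide was taken off, the genes whose signals followed IL6 most closely over the 12 arrays were THBD (r = 0.999), CXCL2 (r = 0.997), SOD2 (r = 0.997), SAT1 (r = 0.996) and CSF3 (r = 0.996). THBD encodes thrombomodulin, CXCL2 and CSF3 encode a neutrophil chemokine and the granulocyte growth factor G-CSF, SOD2 encodes the mitochondrial superoxide dismutase, and SAT1 encodes an enzyme of polyamine breakdown. The log2 fold changes with IL-1β were 7.68 for CXCL2, 4.40 for SOD2 and 2.22 for SAT1, with adjusted p between 0.00367 and 0.00677 (limma). CSF3 was well above background on the 4 IL-1β arrays alone, nominally at least 134-fold, 3.97-fold, 9.83-fold and 128-fold above control on slides A to D. THBD was well above background on slides B and C alone, 3.44-fold and 3.15-fold higher there. The correlations of CSF3, THBD and NCKAP5, which was well above background on 8 arrays, rest in part on values at or near the floor. LIF was followed by other genes, NCKAP5 (r = 0.992), the laminin chain gene LAMB3 (r = 0.991), the galectin gene LGALS1 (r = 0.987), the tropomyosin gene TPM4 (r = 0.987) and IGDCC4 (r = 0.987). These were the 5 highest of all genes tested, they share arrays with IL6 and LIF, and the correlations describe these arrays only.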
